A study of Mus musculus with 22 samples.

Results

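The cells described here carried transcripts of lipocalin-2 (Lcn2) and of the S100a8 and S100a9 pair, and almost none of the granule genes Ngp, Ltf and Camp. They were chosen by measured values in the single-cell tables. A barcode was a member if it held at least 500 transcripts, at least 1 of Lcn2, at least 5 of S100a8 and S100a9 together, at most 1 of Ngp, Ltf and Camp together, and at most 2 of the complement genes C1qa, C1qb and C1qc together. Of 4224 barcodes, 1383 reached the minimum of 500 (kept cells), 637 of those passed every condition other than Lcn2 (gate cells), and 251 were members. The remaining 386 gate cells had Lcn2 at 0 and served as the comparison. The values of these 9 genes are given as descriptions and were left out of the tests across genes. Lcn2 detection itself enters only the shares compared between groups, which the definition did not use.

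The sorted cells were donor-type neutrophils of the terminal ileum, taken on day 21 after an allogeneic transplant into BALB/c mice aged 7 to 9 weeks. Irradiation, in 2 doses of 5 Gy each, and 5000000 bone marrow cells of C57BL/6 type (C57BL/6N donors, 7 to 10 weeks old per the labels) were common to all recipients. Mice in which acute graft-versus-host disease was induced (aGVHD) had 400000 donor T cells added to this graft, and control mice had none. Leukocytes were isolated from 4 cm segments after Peyer's patches had been removed, and sorted as CD45+H2kb+CD11b+Ly6G+, where H2kb marks cells of donor type and Ly6G marks neutrophils. CEL-Seq2, a plate method that counts transcript 3' ends by unique molecular identifiers, gave 10 control and 12 aGVHD libraries of 45607 to 360054 transcripts each. Which mouse a library came from is not in the labels. The p-values below therefore reflect library-to-library spread, part of which may be technical.

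Lipocalin-2 binds bacterial siderophores and so keeps iron from microbes. Neutrophils make it together with lactoferrin (Ltf), cathelicidin (Camp) and neutrophilic granule protein (Ngp) while they form specific granules in the bone marrow, and these messages fall as the cells mature. Lcn2 differs from its granule partners in that inflammatory signals can also induce it in mature neutrophils, macrophages and gut epithelium, whereas S100a8 and S100a9, which form calprotectin, stay abundant in mature neutrophils.

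Members were found in 19 of 22 libraries, 23 cells in control and 228 in aGVHD. The control libraries held 0 to 6 members and the aGVHD libraries 4 to 41. The largest numbers were 41 in aGVHD replicate 7, 38 in replicate 4, 34 in replicate 6 and 25 in replicate 3. Control replicates 5, 6 and 10 held 0, of 3, 10 and 3 gate cells. Members had a median of 2748 transcripts in all (517 to 22126), against 2262 in gate cells with Lcn2 at 0 (541 to 24839). The median sum of S100a8 and S100a9 was 37 per member (quartiles 15 and 88) and 14 per Lcn2-zero cell (quartiles 7 and 28.8).

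Most members carried very little Lcn2. Of the 251, 102 had 1 transcript (40.6%, exact 95% interval 34.5% to 47%), 79 had 2 to 3 and 70 had 4 or more, up to 40. The 70 cells with 4 or more held 69.4% of the 943 Lcn2 transcripts of all members. In control, 11 of 23 members had 1 transcript (47.8%, exact 95% interval 26.8% to 69.4%), and in aGVHD 91 of 228 did (39.9%, 33.5% to 46.6%). Intervals cover counting error only. Kept cells held 2637 Lcn2 transcripts. Members carried 35.8% of them, and 24 granule-rich cells, which had Lcn2 and at least 5 transcripts of Ngp, Ltf and Camp, carried 39.9%. The granule-rich cells were all from aGVHD libraries, 10 in replicate 7, 8 in replicate 6, 4 in replicate 4 and 1 each in replicates 3 and 11.

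The cells on either side of each limit of the definition were as follows. The 34 members with an S100a8 and S100a9 sum of 5 to 9 had a median of 1 Lcn2 transcript, as did the 46 Lcn2-positive cells left out with a sum of 1 to 4. The 32 members with 1 granule transcript had a median of 2 Lcn2 transcripts and the 219 with 0 granule transcripts also 2. The 23 cells left out with 2 to 4 granule transcripts had a median of 7, and the 24 granule-rich cells 30. On the C1q side, 59 members held 1 or 2 C1q transcripts, and 5 cells with 3 to 9 and 9 cells with 10 or more were left out. There were 3 members with less than 1.5 times the minimum of transcripts, and 2 cells with 250 up to the minimum met every other condition.

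The label was checked against neutrophil markers. In depth-matched sums (defined below), the 14 neutrophil markers that the definition did not use were all detected in members. Their summed level ran from 18766 to 32360 CPM (transcripts per 1000000 transcripts of named genes) over 13 libraries, with a median of 24500, and from 14168 to 24886 in Lcn2-zero cells. The level of Retnlg was 508 to 7227 CPM and that of the G-CSF receptor gene Csf3r 1695 to 3670. Ly6g, the gene of the sorted antigen, rested on 33 transcripts, with a median of 37.6 CPM. Markers of other cell types were lower at the median, and single libraries held more of some. Without the C1q genes, macrophage/monocyte markers summed to a median of 2979 CPM in members (1325 to 5684) and 1855 in Lcn2-zero cells (513 to 6359). In members 11 of 14 were detected, led by Lyz1, Ly6c2 and Apoe, with Ms4a7 and Trem2 at 0. Dendritic cell markers, which include class II genes, had a median of 2008 CPM and B or plasma cell markers 436, with up to 9521 and 7837 in a library. Epithelial markers had a median of 97.7 CPM (up to 3313) and T or NK cell markers 89.2 (up to 451). Erythroid markers had a median of 293 CPM in members (up to 799) and 140 in Lcn2-zero cells (up to 7761). For eosinophil, mast cell or basophil markers the medians were 75.1 CPM (up to 328) and 127 (up to 561).

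A background level of Lcn2 was read in 2 places, neither of them a direct measure of free RNA. Cells with at least 10 C1q transcripts and fewer than 5 of S100a8 and S100a9 were taken as a cell type with little Lcn2, and 1 of 13 had it in control (7.69%, exact 95% interval 0.195% to 36%, median depth 12255). In aGVHD, 2 of 8 such cells had it (25%, 3.19% to 65.1%, median depth 10515). Since Lcn2 can be induced in macrophages, these cells may have made it themselves. The shares of gate cells with Lcn2 were 18.5% in control (23 of 124, 12.1% to 26.5%, median depth 2778) and 44.4% in aGVHD (228 of 513, 40.1% to 48.9%, median depth 2396). As a level, Lcn2 was at 17.8 and 47.7 CPM in the C1q cells of control and aGVHD, and at 264 and 991 CPM in gate cells. Barcodes taken as unused held 19 Lcn2 transcripts in control (288 CPM) and 32 in aGVHD (259 CPM). By library, the level in gate cells lay above that of unused barcodes in 10 of 12 aGVHD libraries, in 4 of which unused barcodes were at 0. It lay below in aGVHD replicates 5 and 8 (319 against 614 and 253 against 592 CPM). Replicates 6 and 7, with many members, had the highest levels in unused barcodes, 1371 and 1676 CPM, from 8 and 7 transcripts, against 1606 and 2367 in gate cells. In control the gate level was above in 2 libraries, below in 5 and at 0 with the unused barcodes in 3. Whether members with 1 Lcn2 transcript expressed the gene cannot be told from these tables.

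Members took a larger share of the sorted cells in aGVHD. In the 10 control libraries they were 0% to 10.0% of kept cells (median 5.42%, mean 5.04% ± 4.01 SD), and in the 12 aGVHD libraries 5.33% to 47.1% (median 20%, mean 21.8% ± 14.8 SD). The difference was 16.8 percentage points (exact permutation test of group labels within the title sets, two-sided p = 0.0017). Control libraries held fewer kept cells, 11 to 60 against 74 to 95 in aGVHD. With at least 20 kept cells required, 6 control libraries remained, with a mean of 7.01%. The difference was then 14.8 points (exact permutation p = 0.0308). The groups overlapped: aGVHD replicates 5, 9, 10 and 12 lay at 5.33% to 8.33%, within the control range, and the other 8 aGVHD libraries lay above it. The titles fall into 2 sets, 1 with a date-like number and 1 with G1. Taken alone, dated libraries differed by 13.6 points (p = 0.0673, exact permutation) and the G1 libraries by 23.1 points (p = 0.0286, exact permutation, the smallest that 4 against 4 libraries allow). Gate cells without regard to Lcn2 were also a larger part of aGVHD libraries, 31.4% to 77.6% of kept cells against 16.7% to 52.6%.

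Among gate cells alone, Lcn2 was detected more often in aGVHD at equal depth. After drawing 500 transcripts from each cell, the expected share with Lcn2 was 0% to 10.8% in the 7 control libraries with at least 5 gate cells (median 8.19%, mean 6.82% ± 4.14 SD). In the 12 aGVHD libraries it was 4.34% to 35.4% (median 13.1%, mean 16.8% ± 11.2 SD), 9.99 points higher (exact permutation test within title sets, two-sided p = 0.0359). Without thinning the means were 17.2% and 41.5%, 24.3 points apart (exact permutation p = 0.0112). Replicates 5, 8, 9 and 10 of aGVHD lay inside the control range, and replicates 7, 4, 6 and 3 were the highest, at 35.4%, 34.4%, 29.6% and 24.8%. Those 4 libraries also held 23 of the 24 granule-rich cells, which are outside the gate. The call ended within each title set (6.52 points in the dated set, exact permutation p = 0.277; 17.4 points in the G1 set, exact permutation p = 0.133) and when any 1 of control replicates 2, 6, 7 and 8 or aGVHD replicates 3 and 4 was left out (8.39 to 10.2 points, exact permutation p = 0.0502 to 0.0857).

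**Figure D1:**
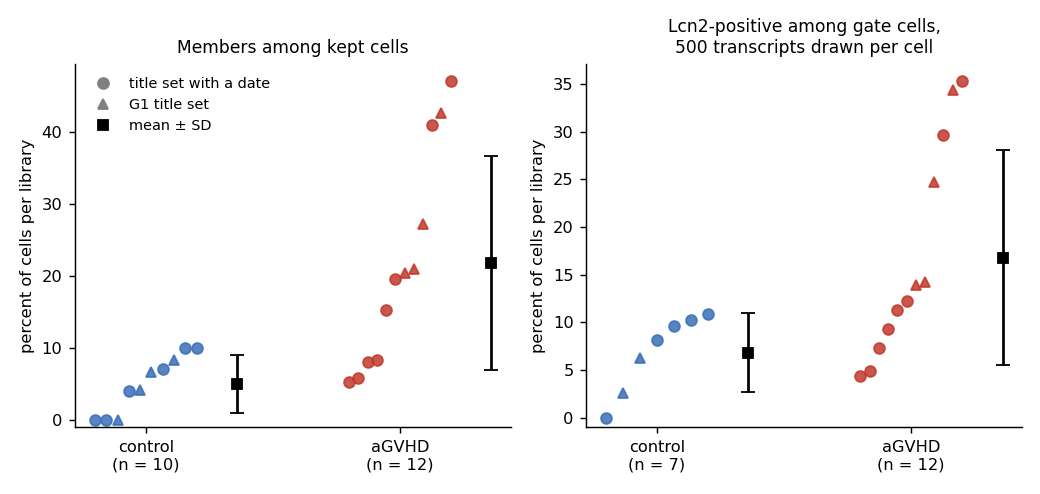
Each point is a library, circles for titles with a date-like number and triangles for the G1 titles. The left panel gives members as a percent of kept cells and the right panel the expected percent of gate cells with Lcn2 after drawing 500 transcripts per cell, in libraries with at least 5 gate cells, with black squares and bars for the mean ± SD. The aGVHD libraries spread from the control range up to 47.1% on the left and 35.4% on the right.

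To see what else members expressed, each was paired within its library with a Lcn2-zero gate cell whose total of named-gene transcripts, Lcn2 left out, lay within 1.5-fold. This gave 165 pairs. The 152 pairs in the 13 libraries with at least 5 (2 control and 11 aGVHD) were summed by library and status and compared with limma, keeping the library as a block. The paired cells had median named totals of 1617 and 1426. Members carried more S100a8 and S100a9, with a median sum of 37.5 against 16 per cell. Over the 13 libraries S100a8 averaged 14256 CPM ± 6241 (SD) in members and 5991 ± 1533 in Lcn2-zero cells. S100a9 averaged 21121 ± 7000 and 9184 ± 4157. S100a9 was higher in members of 13 of 13 libraries and S100a8 in 11.

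Members had more RNA of 14 genes on a list of mature neutrophil genes, led by Retnlg, than their Lcn2-zero partners. Of 301 genes tested, 32 were higher (10.6%) and 1 lower (0.332%) at limma's adjusted p under 0.05, and 78 had an unadjusted p under 0.05. Of 25 tested genes on the list of mature neutrophil genes 14 were higher and 0 lower, with a median log2 fold change of 0.60 against 0.13 over all tested genes. The higher genes included Retnlg, Cxcr2, Asprv1, Slfn4, Ifitm1, Ifitm2, Ifitm3, Ccl6, Msrb1, Mxd1, Trem1, Grina and Lmnb1. Retnlg and Slfn4 were in turn lower in members than in granule-rich cells (below). Whether members were more mature than Lcn2-zero cells was not tested. The calls are relative to the scaling: with library totals in place of trimmed means, the median of all genes moved from 0.13 to 0.01, and 15 genes were higher and 1 lower, 7 of the higher ones among the 25 mature neutrophil genes. Without the 5 libraries that held granule-rich cells, 2 of 179 genes passed (Slpi and Wfdc17), and the count was 21 without aGVHD replicate 11 and 51 without aGVHD replicate 5.

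Retnlg, a resistin-like secreted protein typical of circulating neutrophils, had the largest log2 fold change of the 301 genes that passed the filter. Its level ran from 508 to 7227 CPM in members (median 2654) and from 0 to 3160 in Lcn2-zero cells (median 553). It was higher in members of 13 of 13 libraries, while the ranges overlapped, and the log2 difference was 2.37 (SE 0.33; adjusted p = 2.38e-05, limma). Gda, guanine deaminase, was at 164 to 1661 CPM in members (median 1002) and at 0 to 1383 in Lcn2-zero cells (median 288). It was higher in members of both control libraries and of all aGVHD libraries tested but replicate 5, by 1.43 on the log2 scale (SE 0.25; adjusted p = 0.000356, limma).

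Secreted factors and an adhesion gene followed. The chemokine Ccl6 was at 459 to 1519 CPM (median 879) against 155 to 753 (median 395), higher in 11 of 13 libraries (log2 fold change 1.20, SE 0.22, limma adjusted p = 0.000498). Wfdc17, a small protein with a whey acidic protein domain, was at 489 to 3841 CPM (median 994) against 103 to 1145 (median 680), higher in 12 of 13 (1.16, SE 0.19, limma adjusted p = 0.000206). Selplg, which encodes the P-selectin ligand PSGL-1, was at 164 to 1466 CPM (median 937) against 0 to 888 (median 391) and higher in every one of the 13 libraries (1.11, SE 0.20, limma adjusted p = 0.000498). Ranges of members and Lcn2-zero cells overlapped for all 3 genes.

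S100a6, a calcium-binding relative of S100a8 that the definition did not use, was at 602 to 5629 CPM in members (median 2654) and 271 to 2765 in Lcn2-zero cells (median 1448). It was higher in 11 of 13 libraries (1.15, SE 0.21, limma adjusted p = 0.000472). All 4 tested genes of the S100 and protease inhibitor list passed: S100a6, S100a11 (0.78), Wfdc17 and the secreted protease inhibitor Slpi (0.87, higher in 8 of 13 libraries). Other genes named by the rule were Slfn4, a schlafen family member (1.18), the protease Asprv1 (1.03) and Ifitm3, an interferon-induced membrane protein (0.93, higher in 13 of 13), with limma adjusted p of 0.00742, 0.00265 and 0.0113. The interferon list held 13 tested genes, and Ifitm3 was the single one to pass. All 13 had a positive log2 fold change, with a median of 0.31 against 0.13 over all tested genes. With library totals as the scaling 11 of 13 were positive, with a median of 0.19 against 0.01.

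**Figure D2:**
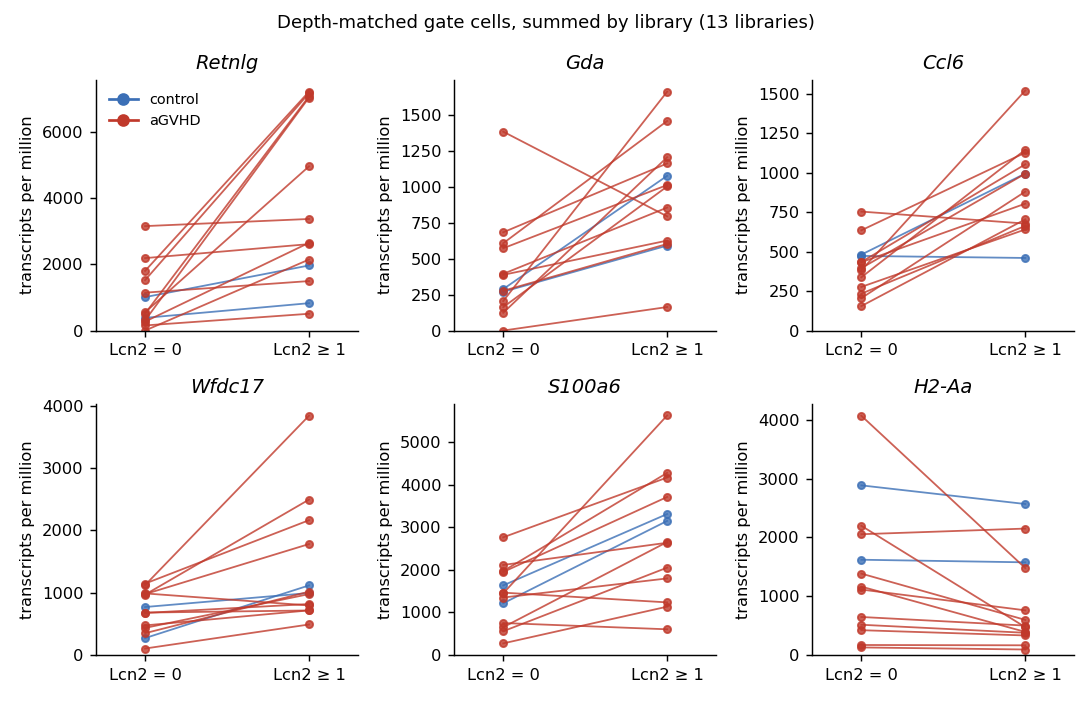
Each line joins the summed level of 1 library in Lcn2-zero cells (left) and in depth-matched members (right), in CPM, for 6 genes. Blue lines are the 2 control and red lines the 11 aGVHD libraries. Retnlg rises in all 13 libraries, and H2-Aa falls in 12 of 13.

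Few inducible inflammatory genes differed with Lcn2. Of 25 tested genes of the NF-kB and inducible list, 1 was higher (Cd14, the lipopolysaccharide co-receptor, 0.93, SE 0.21, limma adjusted p = 0.00347) and 0 were lower, with a median log2 fold change of -0.02. The chemokine gene Cxcl2 had -0.10 (SE 0.19), Il1b 0.20 (SE 0.15), the NF-kB inhibitor gene Nfkbia -0.08 (SE 0.18), and the chemokine receptor-like Ccrl2 0.06 (SE 0.18), with limma adjusted p of 0.823, 0.453, 0.852 and 0.882. The list of ageing and tissue adaptation genes had 1 of 18 higher, Btg1, and Cxcr4, a receptor that draws neutrophils back to the marrow, stood at -0.22 (SE 0.26, limma adjusted p = 0.665). Iron and redox genes, the field of action of lipocalin-2 itself, had 1 of 9 higher, the haptoglobin gene Hp (0.85, limma adjusted p = 0.0113). Ferritin heavy chain (Fth1) had 0.07 (SE 0.14, limma adjusted p = 0.846). The list for STAT3, C/EBP and G-CSF response also had Hp as its 1 higher gene of 7. Among ribosomal proteins 0 of 6, and among mitochondrial transcripts 0 of 13, passed.

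The gene lower in members was H2-Aa, a class II antigen presentation chain. It was at 92 to 2567 CPM in members (median 498.8) and 127 to 4068 in Lcn2-zero cells (median 1162), lower in 12 of 13 libraries (log2 fold change -0.63, SE 0.20, limma adjusted p = 0.0430). The next by p-value did not pass: the class II invariant chain Cd74 (-0.48), the lectin Clec4n (-0.60), Ninj1 (-0.48) and Chchd2 (-0.50), with limma adjusted p of 0.108 to 0.226. Dendritic cell markers, a list that holds H2-Aa and Cd74, had a median summed level of 2008 CPM in members (1235 to 9521) and 3409 in Lcn2-zero cells (1500 to 13724), with Cd209a at 0 in both. Their part in the result was not tested. Leaving out 1 library ended the call of H2-Aa in 6 of 13 cases.

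Genes too low for the filter are given as values. Mmp8, a collagenase of specific and gelatinase granules, had 281 transcripts in members and 31 in their Lcn2-zero partners, and was higher in 12 of 13 libraries. Without the filter 10 of 12603 genes passed. Among them were Mmp8 (log2 fold change 2.50, SE 0.36, limma adjusted p = 0.0107) and Lrg1, another granule protein (1.5, SE 0.26, limma adjusted p = 0.0296). The other genes of this paragraph, Wfdc21, Anxa1, Chil3, Cd177 and Cxcl1, were not among the 10. Wfdc21 had 141 and 37 transcripts and was higher in 13 of 13 libraries, and Anxa1, annexin A1, had 71 and 17. In contrast, the chitinase-like Chil3 had 113 and 130, and the neutrophil antigen Cd177 18 and 17. The chemokine Cxcl1 had 18 transcripts in members and 93 in Lcn2-zero cells, and was lower in 11 of 13 libraries.

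These differences shrank when the level of S100a8 and S100a9 was matched as well, a comparison chosen after seeing the data. When each member was paired with a Lcn2-zero cell of its library within 1.5-fold in named total and also within 1.5-fold in the sum of S100a8 and S100a9, 103 pairs in 10 aGVHD libraries remained, with median sums of 21 and 17. Of 211 genes tested, 0 passed limma's adjusted p of 0.05, and 17 had an unadjusted p under 0.05. Of the 33 genes called before, 29 were still tested. All 29 kept a positive log2 fold change, smaller than before for 28, and their median went from 0.76 to 0.29, against 0.08 over all genes tested. These genes had been picked by the earlier fit on cells of the same libraries. Kept signs and smaller values can come in part from that choice, and its part was not tested. Retnlg went from 2.37 to 0.19 (SE 0.31), S100a6 from 1.15 to 0.03 (SE 0.23), Wfdc17 from 1.16 to 0.13 (SE 0.20) and Selplg from 1.11 to 0.09 (SE 0.31). Gda kept 0.61 (SE 0.25, limma adjusted p = 0.490). Trib1, a pseudokinase that regulates C/EBP proteins, kept 0.80 (SE 0.23, limma adjusted p = 0.263). The smallest p belonged to Ier3, an immediate early gene, at -0.82 (SE 0.22, limma adjusted p = 0.206). Fewer pairs, libraries and S100-rich members entered this fit. When both cells of a pair had to hold an S100 sum of at least 20, without matching on it, limma called 0 of 157 genes, 17 at an unadjusted p under 0.05. In those 49 pairs of 6 libraries several fold changes stayed near their earlier size, with Retnlg at 2.31, Wfdc17 at 1.40, Slfn4 at 1.22 and S100a6 at 1.02 (limma adjusted p of 0.199 to 0.385).

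**Figure D3:**
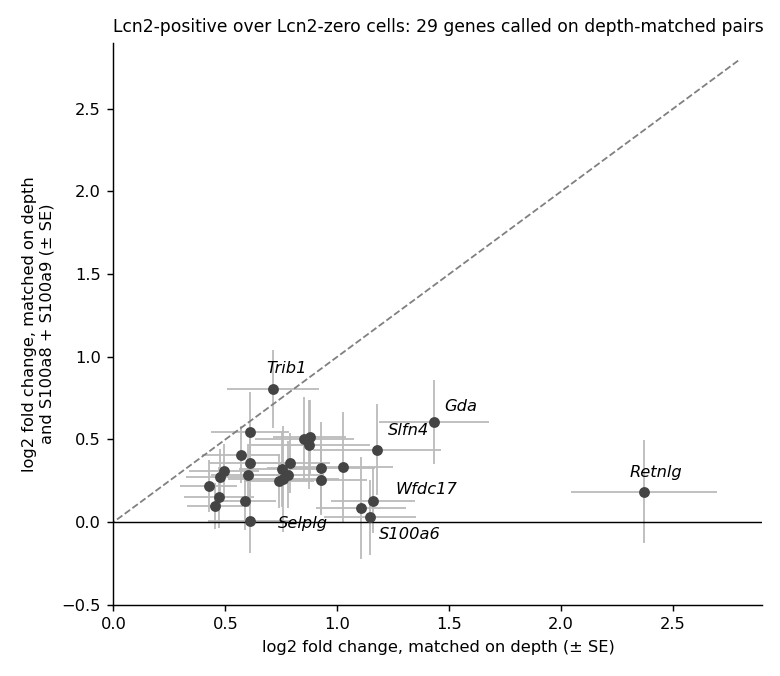
Each point is 1 of the 29 genes called on depth-matched pairs and still tested when pairs were also matched on S100a8 and S100a9. The x axis gives the log2 fold change of Lcn2-positive over Lcn2-zero cells with depth matching alone, the y axis the same with both matchings, and bars are standard errors. All points but Trib1 lie below the dashed line of equality, and Retnlg moves from 2.37 to 0.19.

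Members also differed among themselves by the number of Lcn2 transcripts. In the 5 libraries with at least 20 members (aGVHD replicates 1, 3, 4, 6 and 7), Retnlg was at 903 CPM in 90 Lcn2-zero gate cells, 1693 in 51 members with 1 Lcn2 transcript, 3059 in 50 with 2 to 3, 8340 in 57 with 4 or more, and 21913 in 23 granule-rich cells. Mmp8 went from 237 over 662, 1158 and 2328 to 6343 CPM in the same order. For both, members with 4 or more lay above Lcn2-zero cells in 5 of 5 libraries. Tnf was lowest at the other end, going from 1833 over 1922, 1011 and 644 to 282 CPM, as did the chemokine Ccl4, from 1324 over 1005, 622 and 274 to 53.6 CPM. Ccl4 was lower in members with 4 or more in 5 of 5 libraries and Tnf in 4 of 5. Depth and S100 level rose along the same order: median totals were 2293, 2324, 2723, 3219 and 4008, and median S100 sums 12, 17, 29.5, 87 and 425. The levels are pooled over unmatched cells and given without a test, and the part of depth and S100 level in the order was not tested.

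**Figure D4:**
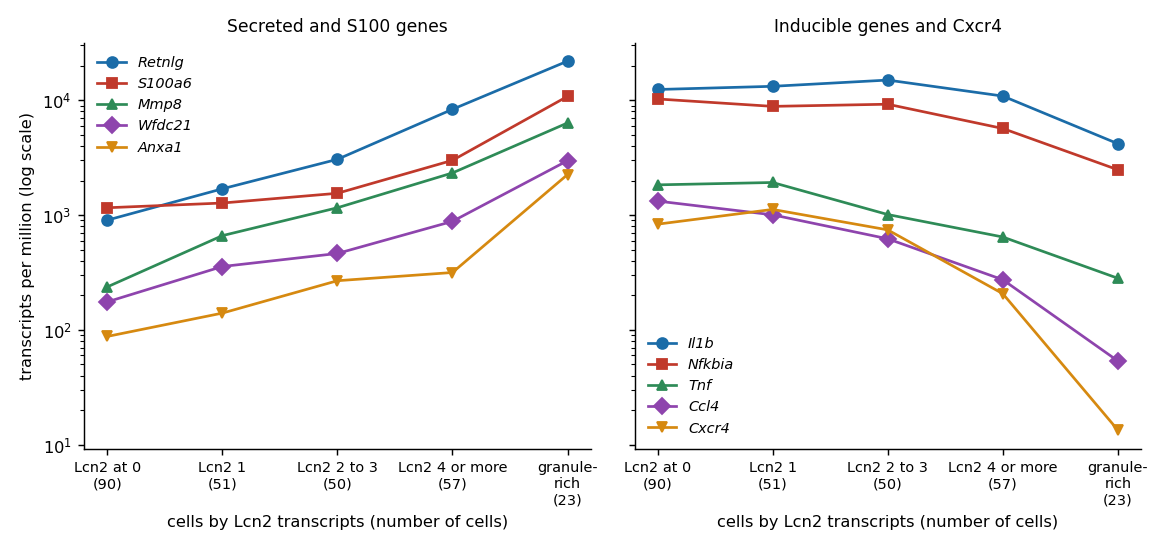
Levels in CPM (log scale), pooled over the 5 libraries with at least 20 members, for Lcn2-zero gate cells, members by Lcn2 transcripts, and granule-rich Lcn2-positive cells; the number of cells stands under each step. Retnlg rises from 903 to 21913, and Tnf ends at 282 after 1833 in Lcn2-zero cells.

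Set against granule-rich Lcn2-positive cells of the same libraries, members had less of the granule and secretory genes and more of the inducible genes. Both kinds reached 5 cells in aGVHD replicates 6 and 7, with 75 members and 18 granule-rich cells, so the fit had 1 residual degree of freedom. Of 862 genes, 45 were higher in members (5.22%) and 36 lower (4.18%) at limma's adjusted p under 0.05, and 242 had an unadjusted p under 0.05. With library totals as the scaling, the median of all genes moved from 0.33 to 0.18, and 48 were higher and 69 lower. By construction members held few transcripts of the granule genes (of Ngp 13, against 918 in the granule-rich cells). Lcn2 was at 1959 and 3029 CPM in members of replicates 6 and 7, and at 14193 and 15882 in the granule-rich cells.

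Granule and secreted proteins outside the definition were lower in members. Other granule genes go with Ngp, Ltf and Camp, on which the 2 kinds of cells were split. Their direction was therefore partly set by the definition, and their p-values are not separate support for it. Of 15 tested genes on the list of granule and secreted proteins 6 were lower and 0 higher, with a median log2 fold change of -1.34. With library totals 11 were lower and 0 higher. Mmp8 was at 1651 and 1789 CPM in members of the 2 libraries and at 6197 and 7063 in granule-rich cells (-1.77, SE 0.19, limma adjusted p = 0.000476). Chil3 fell to 280 and 640 CPM from 1756 and 2970 (-2.21, SE 0.28, limma adjusted p = 0.000859). The others were Cd177 (-2.85), Anxa1 (-2.57), the NADPH oxidase subunit Cybb (-2.35) and the metalloprotease Adam8 (-1.34). In none of these did the libraries of the 2 kinds overlap.

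Surface and mature genes were split. Ly6g, the gene of the sorted antigen, was at 222 and 322 CPM in members and 1132 and 1314 in granule-rich cells (-2.02, SE 0.37, limma adjusted p = 0.00631). Retnlg was at 4883 and 7360 against 15935 and 25365 (-1.58, SE 0.14, limma adjusted p = 0.000457), S100a6 had -1.62 and Ifitm6 -3.08. Of 31 tested mature neutrophil genes 3 were lower (Retnlg, Slfn4 and Ifitm6) and 3 higher (Csf3r, the lectin Clec4e and the phosphatase gene Dusp1), with a median of -0.05. Aldh2 (-3.30), Arhgdib (-2.51) and G6pdx (-2.27), the entry enzyme of the pentose phosphate pathway, were lower as well, as was Acvrl1 (-3.96). Syne1 and Adpgk had 3 transcripts each in members and 31 in granule-rich cells, which is 25.2-fold more per named transcript there, with a counting interval of 7.87 to 129.

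Inducible inflammatory genes were higher in members than in granule-rich cells. Of 34 tested genes of that list 13 rose and 0 fell, with a median of 1.3 against 0.33 over all genes. Il1b was at 9583 and 10649 CPM in members and 1990 and 3598 in granule-rich cells (1.99, SE 0.25, limma adjusted p = 0.000808). Nfkbia, itself induced by NF-kB, was at 6367 and 8304 against 1990 and 2913 (1.73, SE 0.20, limma adjusted p = 0.000544). Tnf was at 532 and 2415 against 234 and 314 (2.69), Il1a at 476 and 1867 against 85.7 and 234 (3.37), and the adhesion molecule Icam1 at 490 and 1123 against 0 and 143 (3.72). The fungal glucan receptor Clec7a (2.53) and the class I gene H2-Q5 (2.98), which shares sequence with its neighbours and is uncertain, rose too. Members lay above granule-rich cells in both libraries for each. Lcn2-zero gate cells also held such genes. In the 5 libraries with at least 20 members, pooled without matching, Il1b was at 12408 CPM in them and 10875 to 14988 in members by Lcn2 step. Nfkbia was at 10260 and 5677 to 9236, Tnf at 1833 and 644 to 1922, and Cxcr4 at 833 and 207 to 1120.

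The chemokine receptor Cxcr4 had 64 transcripts in members and 0 in granule-rich cells, at least 8.74-fold higher when 3 transcripts over the group are taken as the floor. Il23a, a subunit of interleukin-23, had 39 and 0, at least 5.32-fold higher on the same floor. The myeloid growth factor Csf1 had 118 and 2, a ratio of 24.2 (counting interval 6.54 to 202). Mitochondrial transcripts were higher for 13 of 14 tested, with a median of 1.58. Reg3b and Reg3g, antimicrobial lectins of gut epithelium, came out higher (4.77 and 4.04), but 1001 of the 1056 transcripts of the pair in members of replicate 6 lay in 1 barcode, and replicate 7 had 8 in all. Epithelial markers summed to 20416 CPM in members and 859 in granule-rich cells of replicate 6, and to 339 and 57.1 in replicate 7.

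The direction of the 81 called genes held in every alternative in which they were tested, but their number did not. When every cell was thinned to 500 named transcripts, Clec7a, Il1b and Nfkbia passed of 154 genes. In another setting, cells over 4 times the median total of their library or with over 2% Kcnq1ot1 transcripts were left out. There 74 members remained and 62 of 726 genes passed, 57 of them among the 81. Reg3b, Reg3g and Il1a were among the genes that lost their call. With aGVHD replicate 4 admitted, where granule-rich cells number 4, 165 of 788 passed.

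**Figure D5:**
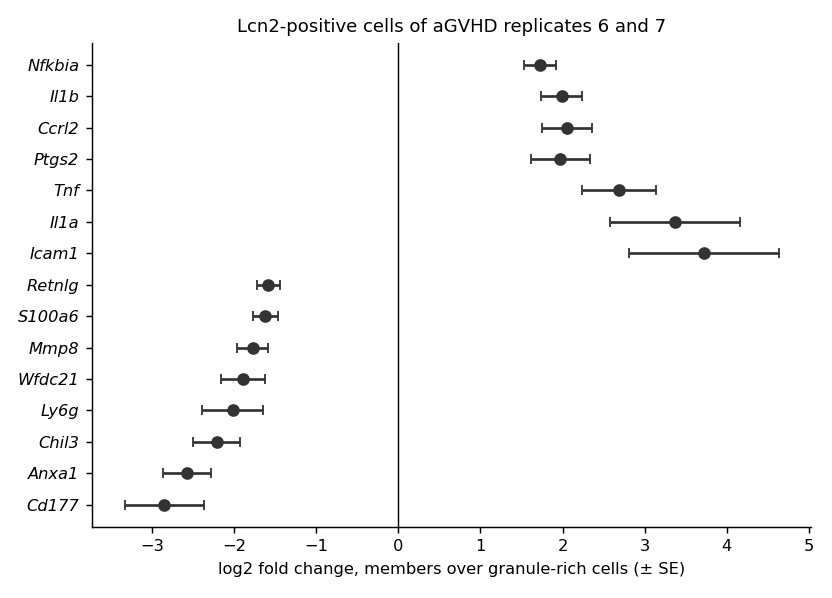
Log2 fold changes with standard errors (limma) of members over granule-rich Lcn2-positive cells in aGVHD replicates 6 and 7, for 15 genes that passed. The upper 7 genes, from Nfkbia to Icam1, are higher in members, and the lower 8, from Retnlg to Cd177, are lower.

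Between groups, no difference within members could be called. Libraries with at least 5 members were 2 in control (12 cells in replicates 2 and 3) and 11 in aGVHD (224 cells). Both control libraries were of the dated title set, and the title set was a covariate. The fold changes therefore compare control with the dated aGVHD libraries alone, whereas the ranges and medians below cover all 11. Of 1120 genes 0 passed limma's adjusted p of 0.05 (0% called), with 42 at an unadjusted p under 0.05, and limma's trend method also called 0 (75 at an unadjusted p under 0.05). The genes with the smallest p in each direction, none past the test, were Il1f9, Smim3, Cstb, Plin2 and Gna13, with values above control, and Foxp1, Rpl12, Pou2f2, Igkc and Hic1, with values below it, each with a limma adjusted p of 0.850. Il1f9, an interleukin-36 cytokine, was at 166 and 287 CPM in the control libraries, from 8 transcripts. In aGVHD it was at 330 to 1191 CPM (median 824), with a log2 fold change of 1.85 (SE 0.64). Foxp1, a transcription factor, was at 335 and 662 CPM in control and 0 to 143 in aGVHD (-2.0, SE 0.55). Igkc, an immunoglobulin light chain and so a marker of B or plasma cells, was at 1159 and 2681 CPM in control and had a median of 0 in aGVHD, with 5634 in the highest library.

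Of 17 ribosomal protein genes tested between groups, 17 had a negative log2 fold change, with a median of -0.83 against 0.20 over all genes, and 0 passed. For the NF-kB list the median was 0.13 (39 tested), for mature neutrophil genes 0.43 (30 tested) and for interferon response genes 0.40 (32 tested). These counts rest on 12 control cells.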

How the data were processed

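The authors deposited a table for each library, genes by 192 barcodes, of other values than whole counts: transcript numbers estimated from molecular identifiers, without depth normalisation, per the file headers and the values. They were rounded here, and no count model was used. Reads had been handled with bcl2fastq (2.17.1.14) and BWA (0.6.2-r126), as the submitters' processing notes list; no genome build is named in the sources used here. Groups came from the sample labels. The members and the gene lists were chosen with earlier results of these data known.

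Transcripts of the 16265 named genes, 55.4% of members' transcripts, were summed per library and tested with limma 3.58.1 (R 4.3.3, voom weights). Scaling was by trimmed means (0.3 and 0.05). Genes needed 10 transcripts at the median sum size in as many sums as the smaller arm, and 15 in all. P-values were adjusted by Benjamini-Hochberg at 0.05, and fold changes are on voom's log2 scale. The library was a block for comparisons within libraries, and the title set a covariate between groups. Pairs were made 1 to 1 within 1.5-fold. Thinned shares are hypergeometric expectations (Python 3.11.15, scipy 1.17.1), with exact permutation of group labels within title sets. Genes named by rule are the 10 largest changes each way among those past the test with the same direction in at least 75% of libraries, or, where fewer than 5 passed, the 5 smallest p; other genes are examples from the lists, and some genes that the rule or the lists would name are not reported here. In each library the block of 96 barcodes with more transcripts was taken as used, and 0 members lay in the others. No doublet caller was run, and 0 kept cells were identical between libraries. On simulated sums with a wide spread between libraries, the tests between groups and against granule-rich cells recovered few or none of the changed genes, so a gene they did not call may still differ.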

Additional observations from a re-analysis of the deposited data

Results flagged for a closer look

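Klf2, a transcription factor of quiescent and recirculating leukocytes, was the 1 gene of 301 (0.332%) for which the effect of Lcn2 status differed between groups (limma interaction, log2 difference -3.54, SE 0.80, adjusted p = 0.0428; 32 genes at an unadjusted p under 0.05). In control it had 30 transcripts in 11 members and 2 in their 11 Lcn2-zero partners: 1242 against 0 CPM in replicate 2 and 985 against 135 in replicate 3. In the 11 aGVHD libraries members averaged 823 CPM and Lcn2-zero cells 910, and members were higher in 4 libraries. The control side rests on 2 libraries. The call ended without control replicate 2 (-2.39, adjusted p = 0.320) and with libraries of at least 3 pairs (-1.69, adjusted p = 0.364), and in 9 of the 13 cases with 1 library left out in all. This test was chosen after seeing the data.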

How the results depend on the processing

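Over single genes and their alternatives, 694 of 781 values kept direction and side of the threshold, 83 lost the call, 3 gained it and 1 reversed (Ninj1, 0.05 in the G1 libraries alone). These totals are no measure of how stable the calls were. They include genes without a call in the main fit, such as Cd74 and all genes named between groups, which had no call to lose. Against granule-rich cells, the dated libraries alone are the main fit itself. Settings in which a gene fell below the filter are not counted. The difference in thinned share fell short of the threshold with at least 2 Lcn2 transcripts (3.88 points, exact permutation p = 0.065), in dated (6.52) or G1 libraries alone (17.4) and with the replicate block (8.52, exact permutation p = 0.375), and ran from 8.3 to 11.1 points with 1 library left out. The member share kept its call with the replicate block (15.2 points, exact permutation p = 0.0313) but not in dated libraries alone (13.6). Title numbers were shared by 6 pairs of dated libraries, with correlations of -0.06 to 0.15, 3 over 0.1 and 1 library closest to its own number, so the numbers were not taken to pair libraries. By Lcn2 status, in place of 33 genes, 5 passed without depth matching, 12 in dated and 18 in G1 libraries alone, 10 without the filter, 16 with library totals, 6 without the library term, 0 at an S100 sum of at least 20, and 21 to 51 with 1 library left out (fewest without aGVHD replicate 11, most without aGVHD replicate 5). Added after seeing the data, matching on S100 gave 0, and leaving out the 5 libraries with granule-rich cells gave 2 (Slpi and Wfdc17; 29 at an unadjusted p under 0.05). Against granule-rich cells, in place of 81, 3 passed with thinning, 165 with at least 3 cells of each, 156 without the filter and 131 with unnamed gene models. With very deep and high-Kcnq1ot1 cells left out, 62 passed. Between groups, in place of 0, limma called 5 without the filter (all lower in aGVHD, Igkc, Ccr7, Ighm and Cd79a among them), 2 with the replicate block (mt-Rnr2 and mt-Rnr1; 0 in the same libraries without it) and 0 to 2 with 1 library left out (2 without control replicate 2, 1 without aGVHD replicate 11). The cause of these changes was not tested. Leaving out a library, a granule minimum of 20 and the G1 libraries alone could not be fitted against granule-rich cells, since fewer than 2 libraries remained.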
